A study of Rattus norvegicus with 6 samples.

Results

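Fos, Jun, Egr1 and Myc are 4 immediate early genes, chosen by their Ensembl rat gene IDs from a table of 27108 genes in cultured rat heart fibroblasts. All 4 rows are present, and all 4 passed the filter on low counts that left 12049 genes for testing. The pairing of symbols with IDs (Fos ENSRNOG00000008015, Jun ENSRNOG00000026293, Egr1 ENSRNOG00000019422, Myc ENSRNOG00000004500) came with the choice of genes, since the table itself gives IDs alone. The cells were cardiac fibroblasts from the ventricles of neonatal rats, sequenced as 6 RNA libraries after 48 h on glass. In the 3 libraries called UT the glass carried fibronectin alone, and in the 3 called TTR it carried fibronectin with fibrils of transthyretin, the plasma protein that deposits as amyloid in the heart. Both groups therefore shared the fibronectin. The labels do not give the rat strain, the fibril dose or the number of animals, and do not say that replicates came from separate cell isolations, so p-values measure the spread between these libraries, which may be technical. The series asks how the fibrils alter the structure, function and inflammatory gene expression of these cells.

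Immediate early genes are transcribed within minutes of a stimulus such as serum, adhesion or stretch, without prior protein synthesis, and their short-lived transcripts usually fall back soon after. Kinases of the MAPK pathways reach many of them through serum response factor and its partners at CArG boxes and through CREB at cAMP response elements. FOS and JUN are subunits of the transcription factor AP-1, EGR1 is a zinc finger factor, and MYC binds E-boxes with its partner MAX. In heart fibroblasts AP-1 and EGR1 are known for their place in the response to injury and to transforming growth factor beta. The libraries were taken at a single time, and no early time is among them.

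The promoter of Egr1 is shown because a RefSeq promoter entry was matched for this gene alone, 1 of the 4. The match was by symbol, and the counts were made on another build, rn6. The window runs from 250 bases before the start of Egr1 to 50 bases after it, at chr18:26736828-26737127 on the plus strand of the GRCr8 build, with CArG boxes in capitals.
Egr1: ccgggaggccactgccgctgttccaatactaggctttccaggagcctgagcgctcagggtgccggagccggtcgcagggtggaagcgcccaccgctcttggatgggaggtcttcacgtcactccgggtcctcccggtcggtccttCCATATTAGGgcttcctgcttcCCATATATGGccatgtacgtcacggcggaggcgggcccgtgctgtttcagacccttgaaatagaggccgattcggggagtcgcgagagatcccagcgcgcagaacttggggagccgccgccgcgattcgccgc

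The window held 2 CArG boxes, CCATATTAGG at bases -105 to -96 and CCATATATGG at -83 to -74, counted from the gene's start. Of 33469 rat promoters of 300 bases, 1.64% held at least 1 CArG box on either strand and 0.0209%, 7 promoters, held at least 2. The core of the cAMP response element (TGACG, also searched as its reverse complement) lay on the minus strand at -135 to -131 and at -66 to -62, where 4.96% of promoters held at least 2. The full element TGACGTCA (1.83% of promoters), the AP-1 site TGANTCA (7.33%), the EGR site GCGNGGGCG (4.98%) and the E-box CACGTG (6.42%) had no match in these letters on either strand. A match is a description of the sequence, and no binding was measured in these libraries.

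None of the 4 genes differed detectably between the substrates. The count of members called was 0 of 4 in the edgeR quasi-likelihood test (Benjamini-Hochberg adjusted p under 0.05 over all tested genes), where 0.0083% of tested genes, 1 gene, were called. At an unadjusted p under 0.05 the count was likewise 0 of 4, against 2.37% of tested genes. DESeq2 called 0 of the 4, against 0.266% of the genes it gave an adjusted p. The UT and TTR libraries overlapped for each of the 4 genes, whereas they did not overlap for 6.85% of tested genes. Total counts ran from 6574199 to 11774729 per library, the highest being TTR replicate 1, so levels are given below as CPM, the count divided by the scaled library size and set to a common total. Gene length is not in the table, so levels are compared between libraries and not between genes.

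**Figure D1:**
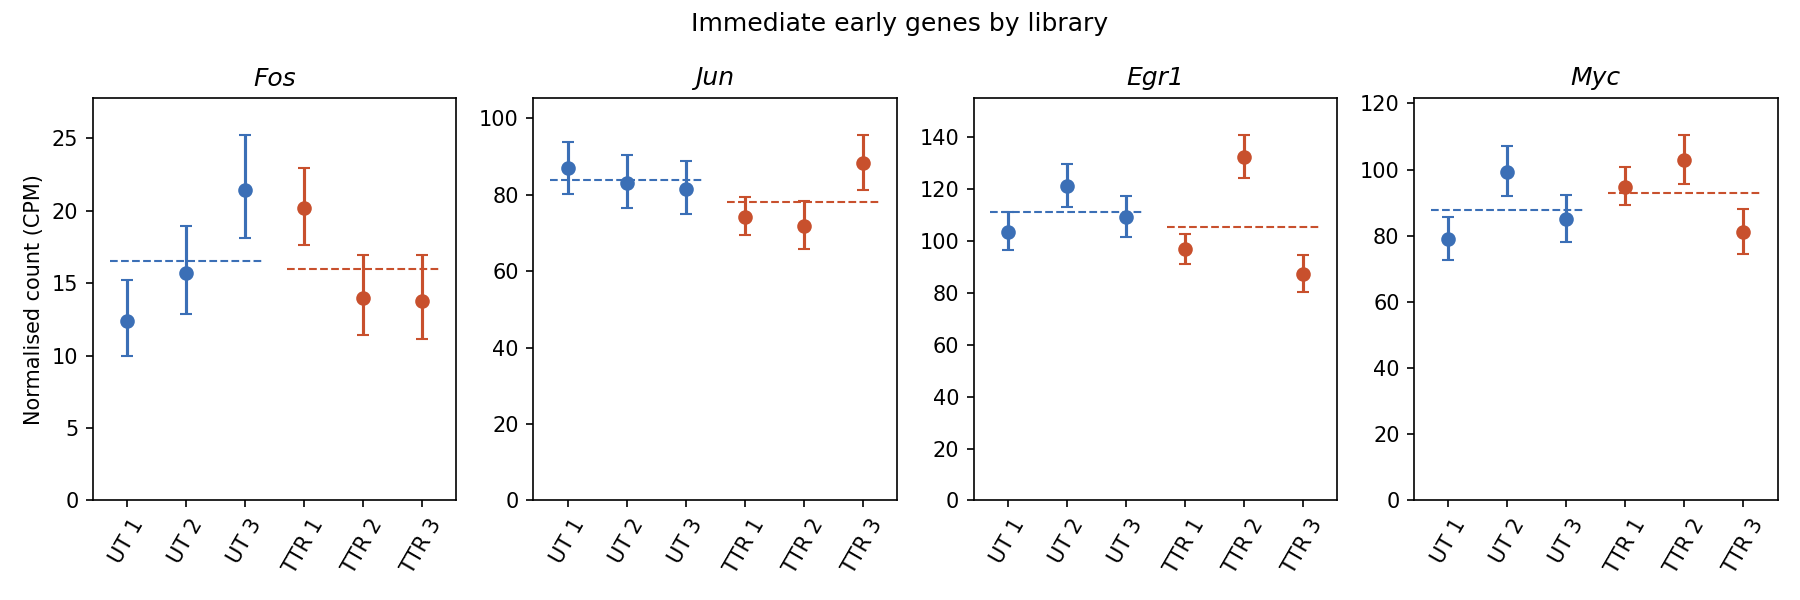
Normalised count in CPM (vertical axes, from 0) of each gene in the 6 libraries, UT in blue and TTR in orange. Bars are 95% exact Poisson intervals of the count, dashed lines are group means; the 2 groups overlap in each panel.

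Fos encodes the AP-1 subunit that needs a JUN partner to bind DNA. Its level was 12.4, 15.7 and 21.5 CPM in UT replicates 1, 2 and 3, and 20.2, 14.0 and 13.8 CPM in TTR replicates 1, 2 and 3. UT replicate 3 and TTR replicate 1 were high and the other 4 libraries were lower, so the high libraries came from both groups. UT averaged 16.5 ± 4.59 CPM, and TTR averaged 16.0 ± 3.63 CPM (SD, n = 3). On the log2 scale TTR minus UT was -0.03 (SE 0.24, adjusted p = 0.999 by edgeR's quasi-likelihood test with Benjamini-Hochberg adjustment). The 95% interval of the fold of TTR over UT ran from 0.675 to 1.41.

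Fos rested on the fewest reads, with counts of 91, 108 and 145 on UT and 234, 102 and 92 on TTR. The 95% Poisson interval of its level, which covers counting error only, was 9.98 to 15.2 CPM in UT replicate 1 and 18.1 to 25.3 CPM in UT replicate 3. They were the lowest and the highest of the 6 libraries, picked after sorting, and both were on UT. From lowest to highest the order was UT replicate 1, TTR replicate 3, TTR replicate 2, UT replicate 2, TTR replicate 1 and UT replicate 3, and every pair of neighbours in it had overlapping intervals. The Fos difference between groups also had no stable sign: without UT replicate 3 its log2 value was 0.20, and without TTR replicate 1 it was -0.24.

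Jun encodes the AP-1 subunit that pairs with FOS or with itself. Its level was 86.9, 83.2 and 81.6 CPM in UT replicates 1, 2 and 3, and 74.3, 71.8 and 88.3 CPM in TTR replicates 1, 2 and 3. TTR replicates 1 and 2 lay below all UT libraries, and TTR replicate 3 lay above them all. Mean levels were 83.9 ± 2.73 CPM for UT against 78.1 ± 8.88 CPM for TTR (SD, n = 3). The fitted log2 difference was -0.10 (SE 0.12, edgeR adjusted p = 0.999), and the 95% interval of the fold ran from 0.773 to 1.12. Without TTR replicate 3 the log2 difference of Jun was -0.20 (edgeR adjusted p = 0.978).

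Jun varied least of the 4 genes over the libraries, by 1.23-fold from lowest to highest, and Fos most, by 1.73-fold. In order from lowest to highest, Jun ran from TTR replicate 2 through TTR replicate 1 and UT replicates 3, 2 and 1 to TTR replicate 3, again with overlapping intervals between neighbours. The Poisson intervals separated TTR replicate 2, at 65.8 to 78.2 CPM, from TTR replicate 3, at 81.3 to 95.7 CPM. The number of Jun counts per Fos count, a ratio within a library that no scaling touches, was 7.01, 5.31 and 3.80 in UT replicates 1, 2 and 3 and 3.68, 5.14 and 6.40 in TTR replicates 1, 2 and 3. The ratio thus spanned overlapping ranges on the substrates. Its exact 95% binomial interval was 5.62 to 8.83 in UT replicate 1, the highest, and 3.18 to 4.27 in TTR replicate 1, the lowest, and covers counting error only.

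Egr1 encodes a zinc finger factor that binds GC-rich promoter sites. Its level was 103.6, 121.2 and 109.1 CPM in UT replicates 1, 2 and 3, and 96.8, 132.4 and 87.2 CPM in TTR replicates 1, 2 and 3. The highest and both lowest libraries were on TTR, and the UT libraries lay between them. Mean levels were 111.3 ± 8.97 CPM for UT against 105.5 ± 23.8 CPM for TTR (SD, n = 3). The fitted log2 difference was -0.08 (SE 0.16, edgeR adjusted p = 0.999), and the 95% interval of the fold ran from 0.735 to 1.22. The wider spread of Egr1 on TTR was not tested.

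Egr1 had counts of 761, 835 and 737 on UT and 1123, 966 and 582 on TTR. Its order ran from TTR replicate 3 through TTR replicate 1 and UT replicates 1, 3 and 2 to TTR replicate 2, with overlapping intervals between neighbours. Of the 15 pairs of libraries, 9 had Poisson intervals of Egr1 that did not overlap, against 7 for Myc, 6 for Fos and 4 for Jun. Of the 6 pairs within a group these were 3 for Egr1, 3 for Myc, 3 for Fos and 2 for Jun. Of the 9 pairs between groups they were 6, 4, 3 and 2 for the same genes. Such intervals are relatively narrower where counts are higher, so these numbers do not rank the genes by spread. The share over all tested genes was not worked out. Without TTR replicate 2 the log2 difference of Egr1 was -0.27, and without TTR replicate 3 it was 0.036, neither past the threshold.

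Myc encodes the partner of MAX that drives growth and ribosome production in many cell types. Its level was 79.0, 99.3 and 85.0 CPM in UT replicates 1, 2 and 3, and 94.9, 102.9 and 81.1 CPM in TTR replicates 1, 2 and 3. TTR replicate 2 and UT replicate 2 were highest, and UT replicate 1 and TTR replicate 3 were lowest. Mean levels were 87.7 ± 10.4 CPM for UT against 93.0 ± 11.0 CPM for TTR (SD, n = 3). The fitted log2 difference was 0.08 (SE 0.14, edgeR adjusted p = 0.999), with a 95% interval of the fold from 0.858 to 1.31. It was the only positive difference of the 4 in this fit. Leaving out TTR replicate 2 left a value of 0.0059, and leaving out UT replicate 1 left 0.018. The order ran from UT replicate 1 through TTR replicate 3, UT replicate 3, TTR replicate 1 and UT replicate 2 to TTR replicate 2, with overlapping intervals between neighbours.

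Within one library the number of Egr1 counts per Myc count was 1.31, 1.22 and 1.28 in UT replicates 1, 2 and 3. On TTR it was 1.02, 1.29 and 1.08. TTR replicates 1 and 3 lay below every UT library, while TTR replicate 2 lay among them, so the groups overlapped here too. Exact 95% binomial intervals, which cover counting error only, are given for the lowest and the highest library, picked after sorting. They were 0.938 to 1.11 in TTR replicate 1 and 1.18 to 1.46 in UT replicate 1. The interval of TTR replicate 3, at 0.955 to 1.21, overlapped those of all UT libraries. No test of this ratio between the groups was run.

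The 95% interval of the fold lay within 2-fold in either direction for 4 of 4 members and for 86.5% of tested genes. The widest interval was that of Fos, whose lower bound was a 1.48-fold fall and whose upper bound a 1.41-fold rise. For Jun the bounds were a 1.29-fold fall and a 1.12-fold rise, and for Egr1 a 1.36-fold fall and a 1.22-fold rise. Myc was bounded by a 1.17-fold fall and a 1.31-fold rise. The median size of the log2 difference was 0.08 over the 4 genes and 0.10 over all tested genes. Differences inside these intervals cannot be told from none in this fit to these libraries, which used no pairing. The intervals hold for this time alone.

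**Figure D2:**
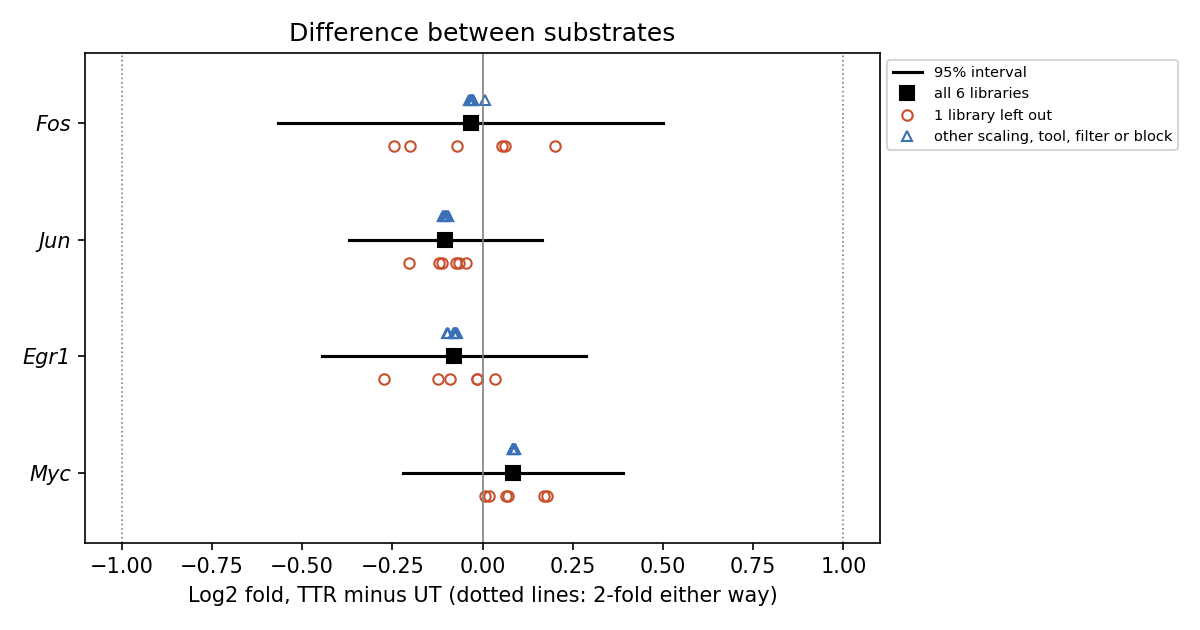
Log2 difference of TTR minus UT for each gene with all 6 libraries (black squares, with the 95% interval), with 1 library left out (orange circles) and under the other settings (blue triangles). Each interval includes 0 and lies inside the dotted lines at 2-fold, and for Fos and Egr1 the circles lie on both sides of 0.

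Most of the variance of each of the 4 genes lay within the groups. The share of the variance of log2 CPM that lay between the groups was 0.338% for Fos, 6.06% for Egr1, 8.07% for Myc and 23.9% for Jun, against a median of 7.83% over all tested genes. Each UT library was paired with the TTR library that correlated best in deviations from group means over the other 12045 tested genes. The correlations were 0.58 for UT replicate 3 with TTR replicate 1 and 0.52 for UT replicate 1 with TTR replicate 3. For UT replicate 2 with TTR replicate 2 it was 0.44. Other pairings between the groups had values from -0.40 to -0.09. Deviations from a group mean cancel out within the group, so the positive sign of a best correlation was built in, but its size was not. For each member the highest 2 libraries formed one of these pairs. Fos was highest in UT replicate 3 and TTR replicate 1, as were 11.1% of tested genes. Jun was highest in UT replicate 1 and TTR replicate 3, as were 17% of tested genes. Egr1 and Myc were both highest in UT replicate 2 and TTR replicate 2, as were 9.44% of tested genes. All 3 pairs together held the highest 2 libraries of 37.5% of tested genes, so the pattern was common and is given as a description, chosen after the values were seen. The labels give no date or cell isolation for the libraries, and what the pairs share was not tested.

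**Figure D3:**
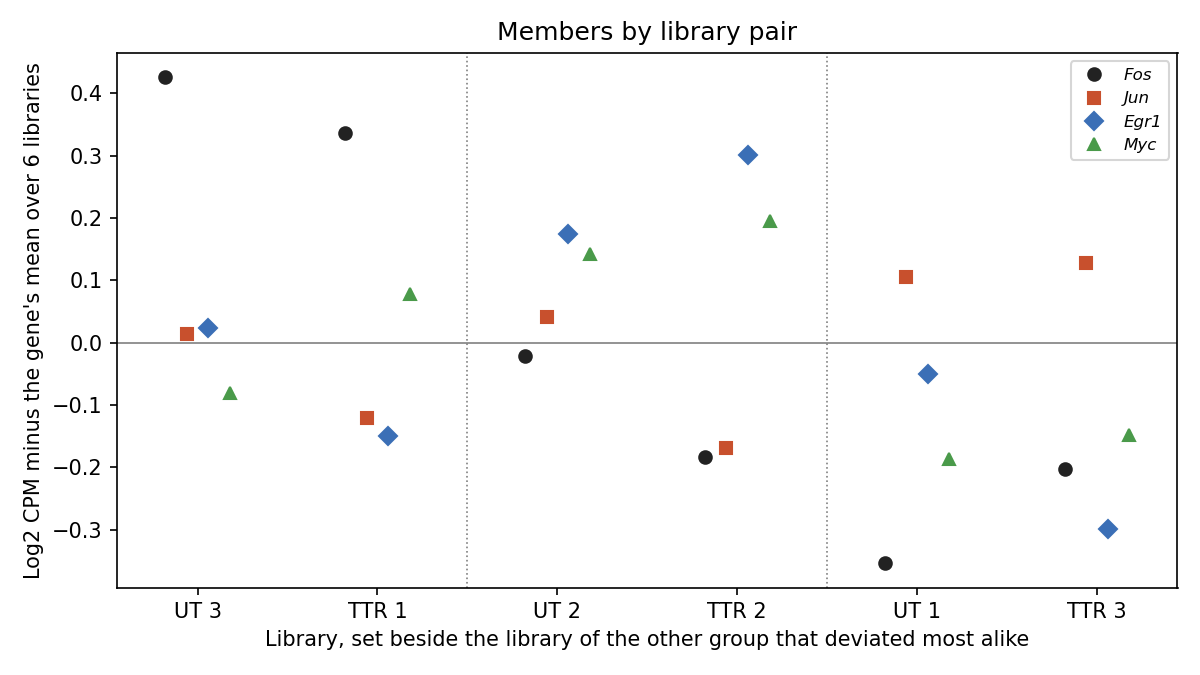
Log2 CPM of each gene minus its mean over the 6 libraries (vertical axis), with each library set beside the library of the other group that deviated most alike. Fos is highest in the left pair, Egr1 and Myc in the middle pair and Jun in the right pair.

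No pair of the 4 genes passed a test of correlation over the libraries. All 6 pairs of genes were compared by Pearson's r and Spearman's rho of log2 CPM over the 6 libraries, with exact two-sided permutation tests adjusted over the 6 pairs. The largest r in size was between Jun and Myc, with r = -0.79 (exact permutation p = 0.075, adjusted p = 0.379) and rho = -0.77 (exact permutation p = 0.103, adjusted p = 0.408). Without TTR replicates 1 and 2, the libraries farthest from the median of Jun, r was -0.60. Egr1 and Myc had r = 0.71 (exact permutation p = 0.126, adjusted p = 0.379) and rho = 0.71 (exact permutation p = 0.136, adjusted p = 0.408), and r = 0.34 without TTR replicates 2 and 3. Neither relation passed the threshold, with or without the adjustment. With the group means removed, r over the 6 libraries was 0.84 for Egr1 and Myc, -0.78 for Jun and Myc and -0.77 for Jun and Egr1. In the same way, r of Fos was -0.44 with Jun, -0.08 with Egr1 and 0.22 with Myc. Values with the group means removed are a description with no test.

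Fos and Jun, the AP-1 partners, had r = -0.36 (exact permutation p = 0.469, adjusted p = 0.704) and rho = -0.54 (exact permutation p = 0.297, adjusted p = 0.446), and r = -0.23 without UT replicate 3 and TTR replicate 1. For Jun and Egr1 r was -0.53 (exact permutation p = 0.282, adjusted p = 0.564) and rho was -0.60 (exact permutation p = 0.242, adjusted p = 0.446), with r = -0.79 without TTR replicates 1 and 2. Fos and Myc had r = 0.19 (exact permutation p = 0.653, adjusted p = 0.783) and rho = 0.43 (exact permutation p = 0.419, adjusted p = 0.503), with r = 0.72 without UT replicate 3 and TTR replicate 1. Fos and Egr1 had r = -0.06 (exact permutation p = 0.9, adjusted p = 0.9) and rho = 0.20 (exact permutation p = 0.714, adjusted p = 0.714), with r = 0.40 without the same libraries. With 6 libraries these values show neither that the genes vary together nor that they do not.

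Among the 12048 other tested genes, ranked by r with Egr1 from highest to lowest, Myc stood at 845, Fos at 6738 and Jun at 10015. With Myc as the reference, Egr1 stood at 1465, Fos at 5093 and Jun at 11138. With Fos as the reference, Myc stood at 4837, Egr1 at 6424 and Jun at 8252. With Jun as the reference, Fos stood at 8098, Egr1 at 9291 and Myc at 11359. A correlation of at least 0.9 was reached by 160 genes (1.33%) with Fos, 190 (1.58%) with Jun, 95 (0.789%) with Egr1 and 239 (1.98%) with Myc. The nearest gene was ENSRNOG00000046191 for Fos (r = 0.987) and ENSRNOG00000012764 for Jun (r = 0.998). For Egr1 it was ENSRNOG00000020851 (r = 0.995) and for Myc ENSRNOG00000011373 (r = 0.996). These genes carry no symbol in the table, and with 6 libraries and so many genes a close match is a description of these libraries, given with no p.

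Fos spread more between replicates than most genes of its level. Its biological coefficient of variation, edgeR's estimate of the relative spread beyond counting error, was 20.2%, against a median of 15.0% over the 500 tested genes nearest in mean level, and at or above that of 89.2% of them. For Egr1 the coefficient was 15.3%, at or above 80.2% of its 500 nearest genes. Myc, at 13.2%, and Jun, at 11.9%, stood at the 56.8 and 30 percentiles of theirs. The counting error of a library with the median Fos count was 9.76%, and for the other 3 genes it was between 3.54% and 4.15%. The 500 genes stand for level alone, and no test was made of these ranks.

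**Figure D4:**
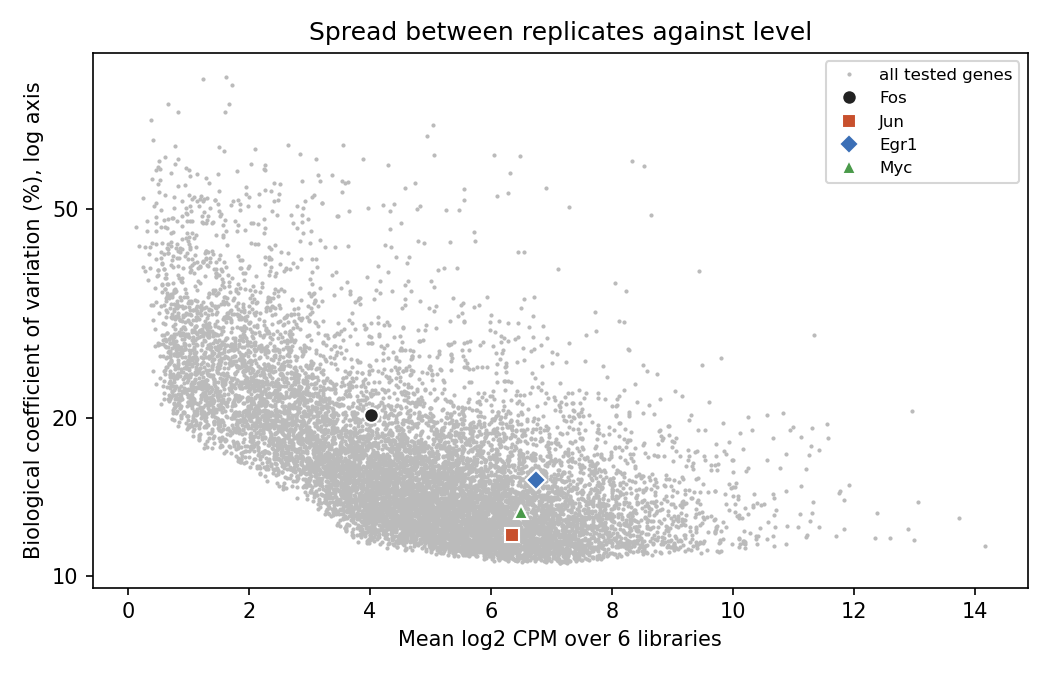
Biological coefficient of variation in percent (vertical log axis) against mean log2 CPM over the 6 libraries, for all 12049 tested genes (grey) and the 4 members. Fos, at 20.2%, and Egr1, at 15.3%, lie in the upper part of the cloud at their level, and Jun, at 11.9%, in the lower part.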

How the data were processed

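RNA was measured in 3 UT and 3 TTR libraries, grouped by their description labels. The authors deposited raw counts per gene, in whole numbers. Per the submitters' processing notes, the tools were STAR, featureCounts and edgeR and the build was rn6. The annotation, strand setting and handling of multi-mapped reads are not given in the sources here. From these counts, edgeR 4.0.16 (R 4.3.3) was run as a two-sided quasi-likelihood F-test on all 6 libraries, with TMM factors, filterByExpr (minimum count 10) and Benjamini-Hochberg adjustment over 12049 genes, threshold 0.05. The SE came from the fold and the F statistic, and intervals from the test's degrees of freedom. Log2 CPM used a prior count of 2. The members, the lists, the tests and the rule for named genes (the 4 members and the gene most correlated with each) were chosen with earlier results of these data known. Lists of 126 symbols, for AP-1 subunits, other immediate early genes, MYC and EGR1 partners and cell type markers, were not analysed here, because the reference table paired 0 of 27108 IDs with a symbol; the cell type label was not checked for the same reason. In simulated counts of 12049 genes for TTR against UT, edgeR recovered 65% of 100 genes changed 2-fold and 96% of 100 changed 4-fold. The draw was made once and gave 15 false calls. Each simulated library was drawn independently, so any variation shared between libraries was left out, and recovery in the real counts may differ. Alternatives were DESeq2 1.42.0, limma-voom (limma 3.58.1), other scalings (RLE, upper quartile, totals), other filters, a replicate block, and omission of each library.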

Additional observations from a re-analysis of the deposited data

How the results depend on the processing

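No member passed the threshold under any of the 14 alternatives, and none had an unadjusted p under 0.05 in any of them. The count of all called genes was 37 with DESeq2, 36 with no low count filter, 3 where 1 CPM was required in 3 libraries, and 1 to 9 with 1 library left out, the 9 coming without TTR replicate 1 and 2 without UT replicate 2. With the replicate number as a block it was 0, with 223 genes at an unadjusted p under 0.05, and the log2 differences were -0.03 for Fos, -0.11 for Jun, -0.10 for Egr1 and 0.08 for Myc. Deviations from group means were positively correlated between UT replicate 2 and TTR replicate 2 (r = 0.44). Between the 2 libraries numbered 1 r was -0.38, and between those numbered 3 it was -0.40. For libraries of unequal number, r was 0.58 for UT replicate 3 with TTR replicate 1 and 0.52 for UT replicate 1 with TTR replicate 3. Deviations cancel out within a group, so these values depend on one another. Whether equal numbers mark paired libraries was not tested. The sign of the log2 difference turned for Fos with limma-voom (0.0077). With 1 library left out the log2 difference ran from -0.24 to 0.20 for Fos, being positive without UT replicate 3, TTR replicate 2 (0.05) or TTR replicate 3 (0.06), and from -0.27 to 0.036 for Egr1. Jun stayed between -0.20 and -0.05 and Myc between 0.0059 and 0.18. The correlation of Fos with Egr1 turned to 0.40 without UT replicate 3 and TTR replicate 1. The cause was not tested. Fos had the fewest counts, the largest biological coefficient of variation of the 4 genes (20.2%) and the widest interval.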
